A study of Mus musculus with 6 samples.

Results

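Choroid plexus epithelium is recognised by a small group of transcripts, and 10 of them, Ttr, Kl, Clic6, Folr1, Kcnj13, Prlr, Enpp2, Sostdc1, Aqp1 and Otx2, were followed here through the 6 RNA-seq libraries of rostral NST microglia. The rule chose the genes as markers of that cell type and used no measured value. Each symbol matched 1 Ensembl identifier in the table of 26789 genes, so all 10 were found. The choroid plexus is a folded epithelium with a vascular stroma that hangs in the brain ventricles and secretes cerebrospinal fluid. Its epithelial cells move ions and water into the fluid, carry vitamins and hormones between blood and brain, and release transthyretin, the most characteristic protein of this tissue. A plexus lies in the fourth ventricle, along the dorsal surface of the medulla that holds the NST (nucleus of the solitary tract, the first central relay for taste).

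The libraries came from postnatal day 15 (P15) C57Bl/6 mice, with 3 libraries of controls, whose dams ate a control diet, and 3 of E3–E12 diet mice, whose dams ate a sodium-restricted diet from embryonic day 3 to 12. By the study's methods, each library held the rostral NST of 6 littermates, pooled, and microglia were taken out with magnetic beads against CD11b before the RNA was amplified, so 1 library stands for 1 litter. The labels name laser microdissection of the tissue in place of the bead sort, so the isolation is uncertain. The libraries are written C1, C2 and C3 for the controls and L1, L2 and L3 for the E3–E12 diet (low-sodium) mice, by the replicate number in the labels.

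The label of the samples was checked on 12 microglial markers (among them Csf1r and Cx3cr1), which were above 0 in every library and summed to between 1.20% and 3.34% of a library's normalized counts. The values are normalized counts that the authors deposited, and their totals ran from about 9407140 to 17204600 per library. Low values clustered at steps of between 0.546 and 1.97 normalized counts, taken as 1 read, which corresponds to about 8390000 to 21800000 assigned reads per library. Between 3459 and 10640 genes were listed at 0, the most of them in C2, the library with the largest value of 1 read. The libraries did not have the same order by genes at 0 as by reads. L1 had the fewest genes at 0 (3459) with about 8390000 reads, and C2 had 10640 with about 8730000. L3 had 7001 with about 15500000 reads, and C3, with the most reads (about 21800000), had 4288. Since 1 read had its largest value in C2, a 0 there allows up to 5.91 normalized counts (3 reads), whereas a 0 in L2 or L3 allows up to 3.37 or 2.83. These limits cover counting error only, and amplified reads are not independent molecules.

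Regulatory stretches of 3 markers are printed, since Kcnj13, Aqp1 and Otx2, were high and low in the same libraries and have RefSeq promoters (build GRCm38.p6). Of the 10 markers, 5 (Kl, Kcnj13, Prlr, Aqp1 and Otx2) had an entry, with 10 promoter windows of 250 bases before to 50 bases after a start. The first stretch is the 250 bases before the Kcnj13 start, chr1:87394730-87394979 on the minus strand. The second is the 250 bases before the Aqp1 start, chr6:55336049-55336298 on the plus strand. The third is 30 bases around the only TAATCC motif found, in capitals on its opposite strand as GGATTA, at chr14:48665303-48665332 on the minus strand, where it begins at position -211 from an annotated Otx2 start. TAATCC is a core sequence bound by OTX-class homeodomain proteins.
Kcnj13: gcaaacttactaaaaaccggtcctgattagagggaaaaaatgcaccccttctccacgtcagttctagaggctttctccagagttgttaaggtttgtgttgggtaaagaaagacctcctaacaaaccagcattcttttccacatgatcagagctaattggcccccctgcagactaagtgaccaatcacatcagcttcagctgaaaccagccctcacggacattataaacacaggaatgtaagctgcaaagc
Aqp1: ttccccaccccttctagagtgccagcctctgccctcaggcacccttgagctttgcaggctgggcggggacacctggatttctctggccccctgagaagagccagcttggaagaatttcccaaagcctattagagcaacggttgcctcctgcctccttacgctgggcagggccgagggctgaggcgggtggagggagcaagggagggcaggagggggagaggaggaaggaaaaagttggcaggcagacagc
Otx2: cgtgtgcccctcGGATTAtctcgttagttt

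Searched on both strands, TAATCC occurred in 1 of the 10 marker windows and in 2320 of 32851 RefSeq promoter windows of the same length (7.06%). Neither the Kcnj13 nor the Aqp1 window held it. A match describes letters only, and nothing about OTX2 follows from its presence or absence in these windows.

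Most of the markers split the libraries in the same way. They stood high in C1, C3 and L1 and low in C2, L2 and L3, so each diet held libraries of both kinds. Ttr, which encodes transthyretin, the carrier of thyroxine and of retinol-binding protein, had the highest mean over the libraries and the widest spread. It stood at 6599, 98.3 and 17949 normalized counts in C1, C2 and C3, and at 38517, 3.37 and 398 in L1, L2 and L3. These are about 8510, 50 and 32904 reads in C1 to C3 and 34350, 3 and 422 reads in L1 to L3. Within the controls, C3 was 183-fold above C2, and within the E3–E12 diet mice L1 was 96.7-fold above L3. Ttr (ENSMUSG00000061808) lies at chr18:20665280-20674321 in GRCm38, and none of the 50-base windows of its transcripts occurs in another annotated gene.

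The other secreted products were Enpp2 and Sostdc1. Enpp2 encodes autotaxin, the enzyme that makes lysophosphatidic acid, and is also transcribed in oligodendrocytes. Enpp2 (chr15:54838901-54952892) had 7223, 206 and 11325 normalized counts in C1 to C3 and 17942, 1394 and 724 in L1 to L3. It had the highest normalized count of the 10 markers in C1, L2 and L3. Its 1394 in L2 stood beside only 3.37 for Ttr. Sostdc1 (chr12:36314139-36318452), a secreted antagonist of bone morphogenetic proteins, was above 0 only in C1, C3 and L1, the libraries high in Ttr. Its values were 337, 0 and 302 in C1 to C3 and 731, 0 and 0 in L1 to L3.

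The markers of transport are membrane proteins with separate cargoes. Kcnj13 (chr1:87386363-87394729), an inwardly rectifying potassium channel of the apical membrane, had 127, 19.7 and 302 normalized counts in C1 to C3 and 307, 5.62 and 2.84 in L1 to L3. L1 and C3 were nearly level for Kcnj13 (1.02-fold apart). Its exons overlap those of Gigyf2 on the opposite strand, with 42.1% of its 50-base windows shared, and no strand setting is given in the sources used here, so part of its count may be Gigyf2 reads. Aqp1 (chr6:55336432-55348555), the apical water channel, had 86.0, 1.99 and 75.0 normalized counts in C1 to C3 and 357, 0 and 1.89 in L1 to L3. The values of Aqp1 in C2 and L3 are near those of 1 and 2 reads, so the gene was at the limit of detection in 3 of the 6 libraries.

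Folr1 (chr7:101858331-101870788) encodes folate receptor alpha, which carries folate across the epithelium. Its values were 66.7, 0 and 114 normalized counts in C1 to C3, and 345, 5.17 and 3.0 in L1 to L3. Clic6 (chr16:92485736-92541243), of the chloride intracellular channel family, was listed at 0 in L2 but not in C2. Clic6 measured 245, 5.97 and 118 normalized counts in C1 to C3 against 259, 0 and 13.3 in L1 to L3. C1 and L1 lay 1.05-fold apart for Clic6, whereas they lay 5.16-fold apart for Folr1. The markers thus shared the split between high and low libraries but not the size of the steps within it.

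Otx2 (chr14:48657677-48673819), a homeodomain transcription factor needed for the plexus to form, was the only transcription factor among the 10. It had 106, 0 and 128 normalized counts in C1, C2 and C3 and 349, 0 and 19.9 in L1, L2 and L3. Like Ttr, Otx2 was higher in L3 than in L2, where it was listed at 0.

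The receptors Kl and Prlr had another pattern. Kl (chr5:150952607-150993817) encodes klotho, the co-receptor for the hormone FGF23, and had 109, 448 and 459 normalized counts in C1 to C3 and 655, 43.8 and 99.4 in L1 to L3. Prlr (chr15:10177238-10349180), the prolactin receptor, had 66.1, 235 and 385 in C1 to C3 and 329, 51.4 and 101 in L1 to L3. Both were above 0 in all 6 libraries, as were Ttr, Enpp2 and Kcnj13. Both were also higher in C2 than in C1 (4.11-fold for Kl and 3.55-fold for Prlr), the reverse of what the other 8 markers showed in these libraries.

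**Figure D1:**
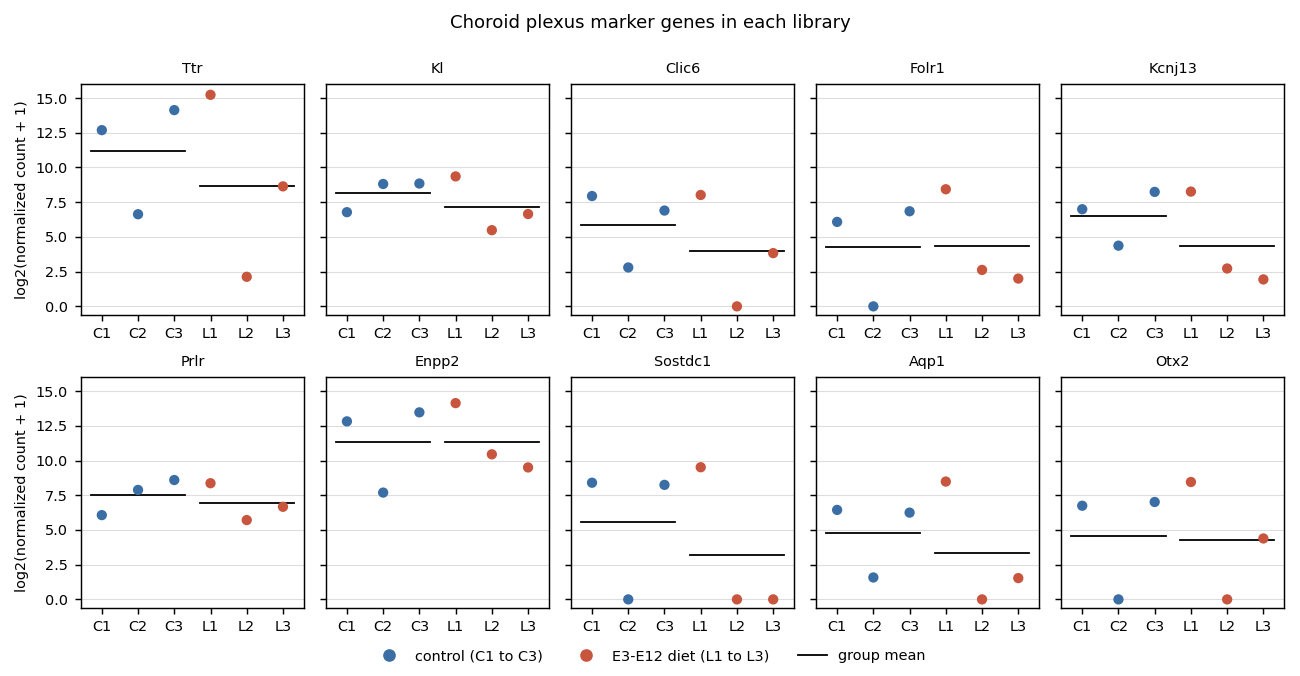
Normalized counts of each of the 10 marker genes in each library on a log2(normalized count + 1) axis, with controls (C1 to C3) in blue and E3–E12 diet mice (L1 to L3) in red. C1, C3 and L1 sit high and C2, L2 and L3 low in most genes, while Kl and Prlr stay above 40 normalized counts in every library.

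The span from the lowest to the highest library was 13.1 on the log2(normalized count + 1) scale for Ttr, and 99.99% of the 18007 genes that averaged 10 normalized counts or more had a smaller span. Sostdc1 spanned 9.52 (99.5% of genes smaller), and Aqp1, Otx2, Folr1 and Clic6 spanned between 8.02 and 8.48 (97.4% to 98.4% smaller). Enpp2 and Kcnj13 followed with 6.44 and 6.32. Kl spanned 3.87, and Prlr, with 2.88, was close to the median gene, which spanned 2.81. The median of the 10 markers was 8.23. A 0 was listed in at least 1 library for 5 of the 10 markers (Clic6, Folr1, Sostdc1, Aqp1 and Otx2), against 19.9% of all genes tested. A total of 9 of the 10 markers reached their highest value in L1, where 22.7% of all genes did, and Prlr reached it in C3, as did 10.9% of all genes. None of the markers was highest in C1, C2, L2 or L3, which held the highest value of 12.9%, 26.3%, 14.0% and 13.2% of all genes.

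Summed over the 10 markers, the libraries held 14964, 1015 and 31158 normalized counts in C1 to C3 and 59791, 1503 and 1363 in L1 to L3. The highest sum was 58.9 times the lowest. As a share of each library's total, the sum was 0.155%, 0.00590% and 0.262% in C1 to C3 and 0.636%, 0.0134% and 0.00930% in L1 to L3. In bulk libraries of this kind, fewer cells of a type and less RNA per cell cannot be told apart. With Ttr left out, the sum of the other 9 still spanned from 916 in C2 to 21274 in L1, so Ttr alone did not set the difference between libraries. Enpp2 held 17942 of that sum in L1. With Ttr and Enpp2 both left out, a sum chosen after its values were seen, the other 8 held 1143, 711 and 1884 in C1 to C3. In L1 to L3 they held 3331, 106 and 241.

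Levels were compared between genes per kilobase of exon. Ttr averaged 8933 ± 12931 normalized counts per kilobase (SD, n = 6 libraries) and Enpp2 1119 ± 1233. Sostdc1 (128 ± 164) and Kcnj13 (100.1 ± 114) came next, and Folr1, Aqp1, Kl, Clic6 and Otx2 lay between 23.8 and 38.7. Prlr was lowest at 12.7 ± 9.30. Of the neighbours in this order, Enpp2 exceeded Sostdc1 and Kcnj13 exceeded Folr1 in 6 of 6 libraries, with mean differences per kilobase of 4.87 ± 2.20 and 1.66 ± 1.36 on the log2 scale. In L2 and L3, Kcnj13 and Folr1 each had about 5 and 3 reads, so their order there came from exon length (1270 against 2297 bases). Part of the Kcnj13 count may also be Gigyf2 reads, as given above. Ttr exceeded Enpp2 in 5 of 6 libraries, but by 0.85 ± 3.45, less than the spread between libraries. The other neighbouring pairs changed places between libraries and did not differ beyond their spread.

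The make-up of the summed level per kilobase in C2 and L2 differed from that in the high libraries. Ttr made up 76.6%, 85.4% and 88.3% of it in C1, C3 and L1, and 68.4% in L3, where the whole sum was low. In C2 its share was 41.5%, with Kl at 24.1%, Enpp2 at 17.8%, Kcnj13 at 7.76% and Prlr at 7.67%. In L2 Enpp2 made up 93.2% and Ttr 1.10%. Set against Ttr, Otx2 stood at 0.452%, 0.201% and 0.255% per kilobase in C1, C3 and L1, and Folr1 at 0.522%, 0.328% and 0.462%. In L3 Folr1 stood at 0.389% of Ttr, within that range, and Otx2 at 1.41%, above it. C2 and L2 thus held these transcripts in other proportions than the high libraries, whereas L3 did so for some genes only. Several values of the low libraries rest on only a few reads.

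**Figure D2:**
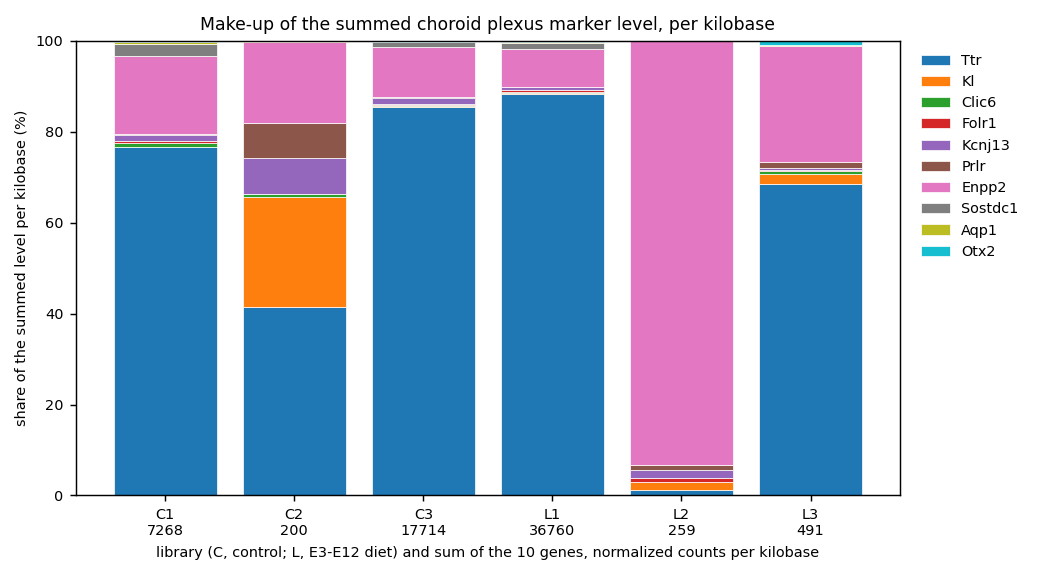
Share of each marker in the summed level of the 10 genes, in percent of normalized counts per kilobase, for each library, with that sum under the library's name. Ttr makes up most of the sum in C1, C3, L1 and L3, Ttr and Kl in C2, and Enpp2 in L2.

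The study asked which microglial genes the E3–E12 diet changed, and the markers were read from the same comparison. For each of the 18007 genes, limma tested log2(normalized count + 1) for a difference between the diets (two-sided, Benjamini-Hochberg adjusted over all of them, threshold 0.1). All 10 markers passed the filter on low values and entered the fit. None of them passed the threshold (each adjusted p = 0.999 from limma), and neither did any other gene (0.0% of those tested). None of the 10 had an unadjusted p under 0.05, against 1.82% of all genes (327 genes, of which 171 were higher and 156 lower by mean log2 level after the diet). The study, with DESeq2 on reads at the same threshold, did list Ttr and other genes as lower in E3–E12 diet mice. Cldn2, a gene of the second choroid plexus list below, was among them. The study's test and input differ from limma on the deposited normalized counts, and the reason for the unlike outcome was not tested.

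The mean of Ttr was 8215 ± 9035 normalized counts over C1 to C3 and 12973 ± 22123 over L1 to L3 (mean ± SD, n = 3 per group). On the log2 scale its difference had the opposite sign, -2.48 with a standard error of 3.47 and a 95% interval from -10.8 to 5.82. The 2 scales differ in sign because L2 and L3 were very low while L1 was the highest library. An exact permutation test over the libraries, two-sided, gave Ttr p = 0.7, where 0.1 is the smallest p that 3 libraries against 3 allow. Among the other secreted products, Enpp2 differed by 0.034 with a standard error of 1.86, and Sostdc1 by -2.38 with a standard error of 3.31.

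Kcnj13, Clic6 and Aqp1 had lower mean log2 levels in E3–E12 diet mice (-2.22, -1.93 and -1.42, with standard errors of 1.85, 2.23 and 2.43). Folr1 differed by 0.043 with a standard error of 2.37, and Otx2 by -0.31 with a standard error of 2.65. The receptors had the smallest standard errors, with -0.98 ± 1.16 (SE) for Kl and -0.60 ± 0.98 (SE) for Prlr. In all, 8 markers had the lower and 2 the higher mean log2 level in E3–E12 diet mice, where 45.6% of all genes had the lower one. Their median log2 difference was -1.20, beside 0.09 over all genes tested. The exact permutation test gave p between 0.4 (Kcnj13) and 1.0 for the 10 markers. Single libraries set several of these signs. Without L2 the log2 differences of Ttr, Clic6, Prlr, Aqp1 and Otx2 were 0.79, 0.046, 0.0021, 0.25 and 1.83. Folr1 and Enpp2 stood at -2.11 and -1.78 without C2 and at -2.0 and -1.35 without L1, and Otx2 at 0.77 without C1 and 0.91 without C3.

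The groups overlapped for all 10 markers. Over all genes tested they did not overlap in 5.9%, with 2.99% entirely above and 2.91% entirely below the controls. The 95% intervals of the markers reached from -10.8 (Ttr) to 5.82 (Ttr), and the narrowest, of Prlr, ran from -2.95 to 1.75, so a change of several-fold in either direction was not detectable with these libraries.

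**Figure D3:**
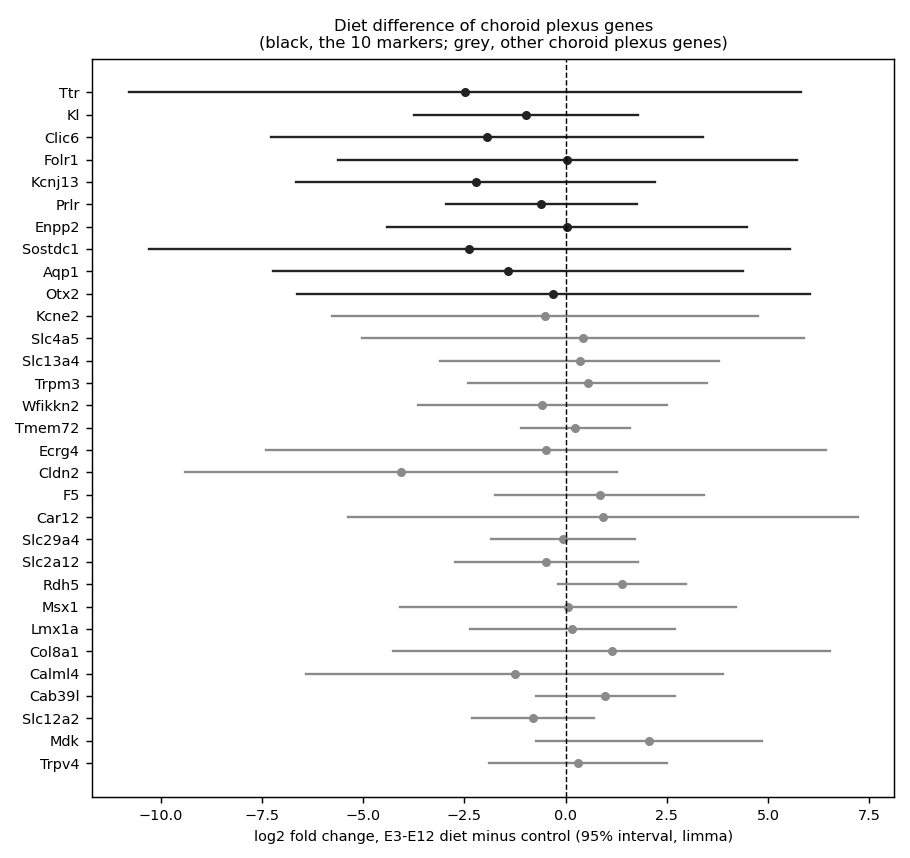
Difference in mean log2(normalized count + 1), E3–E12 diet minus control, of each marker with its 95% interval from limma (n = 3 libraries per group). Every interval includes 0, and those of Ttr and Sostdc1 are the widest.

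The genes most like Ttr over the 6 libraries were found by the root mean square difference from Ttr in log2(normalized count + 1), after each gene's own mean was subtracted. Over 18006 genes the median difference was 4.63. The 5 nearest were Ecrg4 (listed as 1500015O10Rik, 1.62), Otx2 (1.76), Clic6 (1.81), Dnah6 (1.84) and Aqp1 (1.88). Ecrg4 encodes a secreted peptide precursor of the choroid plexus and had 203, 0 and 217 normalized counts in C1 to C3 and 533, 0 and 29.1 in L1 to L3. Dnah6, an axonemal dynein heavy chain, had 108, 0 and 60.8 in C1 to C3 and 504, 0 and 4.04 in L1 to L3. Sostdc1 ranked at 7, Folr1 at 101, Kcnj13 at 110 and Enpp2 at 329. Kl and Prlr ranked far lower, at 1404 and 2430. The ranking is a description over 6 libraries of unequal depth, processed together in 1 table.

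**Figure D4:**
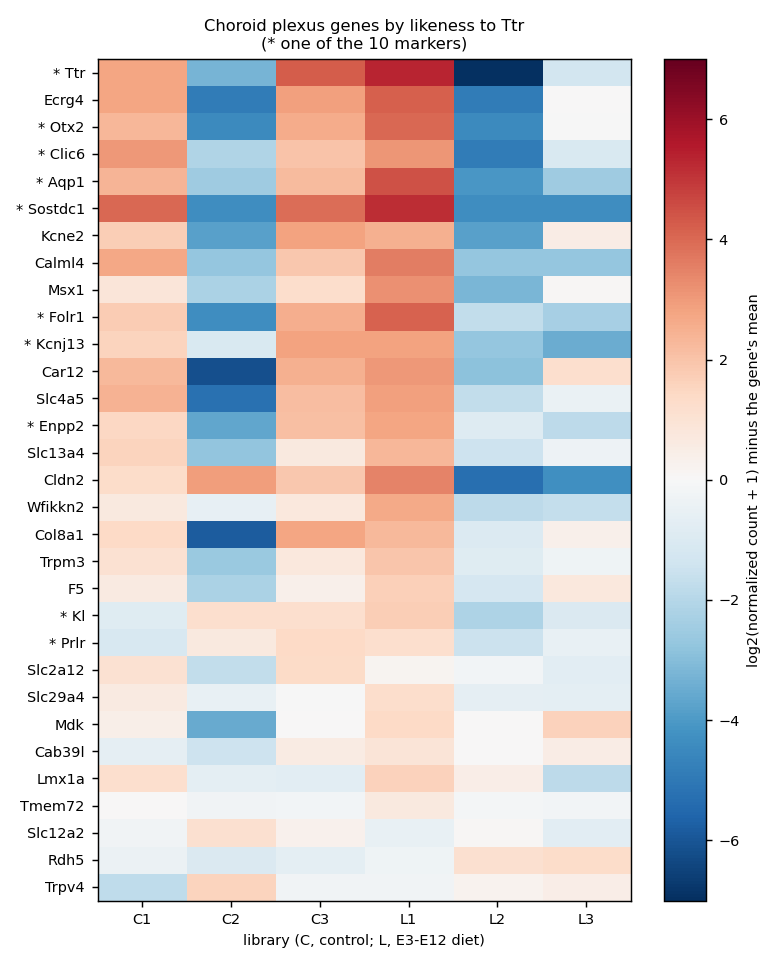
Heat map of log2(normalized count + 1) minus each gene's own mean in each of the 6 libraries. Rows are Ttr, then the other markers and the second choroid plexus list (described below), in order of root mean square difference from Ttr. Stars denote the markers. Ecrg4, Otx2, Clic6 and Aqp1 come next to Ttr, and Kl and Prlr are farthest among the markers.

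A second list of 22 choroid plexus epithelial genes, of which 21 were in the table (Cltrn was not matched), was read in the same way. Its summed level ran from 6475 to 8700 normalized counts in controls and from 5770 to 14504 in E3–E12 diet mice, a span of 2.51 times against 58.9 times for the 10 markers. The gene with the highest mean, Tmem72, had 2831, 2330 and 2434 normalized counts in C1 to C3 and 4382, 2528 and 2379 in L1 to L3. Slc12a2, the sodium-potassium-chloride cotransporter, was highest in C2, at 2639. Tmem72 and Slc12a2 held most of the list's sum in C2 (6475), so the span of the sum says little about its other genes. Trpm3 and the bicarbonate cotransporter Slc4a5 had the order of the markers. Slc4a5 had 652, 2.25 and 543 normalized counts in C1 to C3 and 884, 35.3 and 86.7 in L1 to L3. Kcne2, a potassium channel subunit of the plexus, ranked at 17 in likeness to Ttr.

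Of the 21 genes, 14 were highest in L1, against the 22.7% of all genes given above. In E3–E12 diet mice 13 were higher and 8 lower, with a median log2 difference of 0.24, and none passed the adjusted threshold or had an unadjusted p under 0.05. Only Rdh5, a retinol dehydrogenase, did not overlap between groups, 1 of 21 genes where 2.99% of all genes lay entirely above the controls. It had 205, 136 and 166 normalized counts in C1 to C3 and 217, 597 and 651 in L1 to L3. Its log2 difference was 1.39 with a standard error of 0.66 (adjusted p = 0.999 from limma). Rdh5 and Kcne2 were singled out after their values were seen, and Rdh5 was far from Ttr in likeness (rank 15881).

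Genes that act with the markers were taken from a list of 36, of which 34 passed the filter. In E3–E12 diet mice 20 were higher and 14 lower, with a median log2 difference of 0.11, and none passed the adjusted threshold or had an unadjusted p under 0.05. Beside Ttr, the thyroxine transporter Slco1c1 was listed at 0 in C2 and lay between 239 and 534 in the other libraries. Rbp4, the retinol-binding protein, did not pass the filter, with at most 1.62 normalized counts, and its receptor Stra6 had between 38.5 and 467.

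Beside Enpp2, the lysophosphatidic acid receptor with the highest mean was Lpar6, with 916, 861 and 1718 normalized counts in C1 to C3 and 672, 1094 and 911 in L1 to L3. It did not share the low values of Enpp2. Beside Folr1, the proton-coupled folate transporter Slc46a1 was highest in C2, at 1639 normalized counts, and lay between 161 and 398 in the other libraries. Beside Kl, Fgfr1, its partner in the FGF23 receptor, lay between 97.3 and 466 normalized counts. Beside Prlr, the feedback inhibitor Socs2 had all of L1 to L3 below the lowest control, but barely, with 274 in L1 and 276 in C1. It was the only 1 of the 34 partners entirely below the controls, against 2.91% of all genes. Its mean difference was -0.79 on the log2 scale with a standard error of 0.60 (adjusted p = 0.999 from limma). Beside Otx2, its relative Otx1 had 313 normalized counts in L1 and between 4.68 and 45.4 elsewhere.

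Markers of other cells that a dissection next to the fourth ventricle could hold were summed in the same libraries. The meningeal and choroid stromal fibroblast list (10 of 10 genes in the table) summed to between 3031 and 5956 normalized counts in controls and between 2829 and 14905 in E3–E12 diet mice. Like the choroid plexus markers, it was highest in L1, where Igf2 made up 10317. Of its genes, 1 was listed at 0 in C2 and 1 in L3. The ependymal list (10 of 11 genes) ran from 428 to 4782 in controls and from 2393 to 3241 in E3–E12 diet mice, most of it Pltp. With Pltp left out, a sum chosen after its values were seen, the other 9 stood at 234, 288 and 136 in C1 to C3 and at 652, 157 and 114 in L1 to L3. Of the 8 ependymal genes tested, 5 were highest in L1, against the 22.7% of all genes given above. Among them Tekt1, a tektin of motile cilia that was also singled out after its values were seen, had 14.7, 0 and 5.93 normalized counts in C1 to C3 and 94.9, 0 and 0 in L1 to L3. Another 2 of the 8 were highest in C2, against 26.3% of all genes. Of these, Ak7 had 29.4, 207 and 7.0 normalized counts in C1 to C3 and 35.2, 2.25 and 0 in L1 to L3. Foxj1, the transcription factor that defines ependymal cells, was at 80.5, 11.9 and 48.5 in C1 to C3 and at 105, 37.1 and 66.3 in L1 to L3. The ependymal genes at 0 numbered 4 in C2, 3 in each of L2 and L3, and 1 in each other library.

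The endothelial list (11 genes) ran from 4588 to 14971 in controls and from 9684 to 19265 in E3–E12 diet mice, lowest in C2, where 4 of its genes were listed at 0. The astrocyte list (8 genes) ran from 2225 to 9848 and from 5022 to 13059, and the neuronal list (9 of 10 genes) from 690 to 1911 and from 882 to 2082. Both were highest in L1 and, in the controls, in C1. The erythroid list (5 genes) ran from 11.2 to 219 and from 2.31 to 95.5, lowest in C2 and L2. The oligodendrocyte list (10 genes), which bears on Enpp2, stood at 43917, 18300 and 5591 in C1 to C3 and at 17726, 25098 and 6885 in L1 to L3. Of the E3–E12 diet libraries, L2, where Enpp2 was at 1394 beside 3.37 for Ttr, had the highest oligodendrocyte sum, and of all libraries C3, with Enpp2 at 11325, had the lowest. In the limma fit the genes tested had a higher mean log2 level in E3–E12 diet mice for 6 of 8 ependymal, 5 of 9 fibroblast, 7 of 11 endothelial, 4 of 10 oligodendrocyte, 7 of 8 astrocyte and 6 of 9 neuronal genes. Over all genes tested, 45.6% had the lower level. The medians of these lists were 0.92, 0.22, 1.51, -0.25, 0.89 and 0.09, and none of their genes passed the adjusted threshold or had an unadjusted p under 0.05. Without C2 the endothelial median was -0.33.

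Lists of myeloid cells had another order of libraries. The microglial list (12 genes) stood at 120310, 574050 and 316259 normalized counts in C1 to C3 and at 113180, 280370 and 381604 in L1 to L3. L1 and C1, high in Ttr, were lowest in it, but C3, also high in Ttr, was not. The border macrophage list (8 genes) ran from 6281 to 21547 in controls and from 5905 to 10189 in E3–E12 diet mice. No microglial or border macrophage gene was listed at 0. All 12 microglial genes, 7 of 8 border macrophage genes and 4 of 4 erythroid genes tested had a lower mean log2 level in E3–E12 diet mice, with medians of -0.28, -0.44 and -1.11. Over all genes tested, 45.6% had the lower level. None of the myeloid and erythroid genes passed the adjusted threshold (limma). Of them, 1 (Pf4, a chemokine of border macrophages, named for this p) had an unadjusted p under 0.05, against 1.82% of all genes. What part cells of these kinds, or the depth of C2, had in the levels of the choroid plexus markers was not tested.

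**Figure D5:**
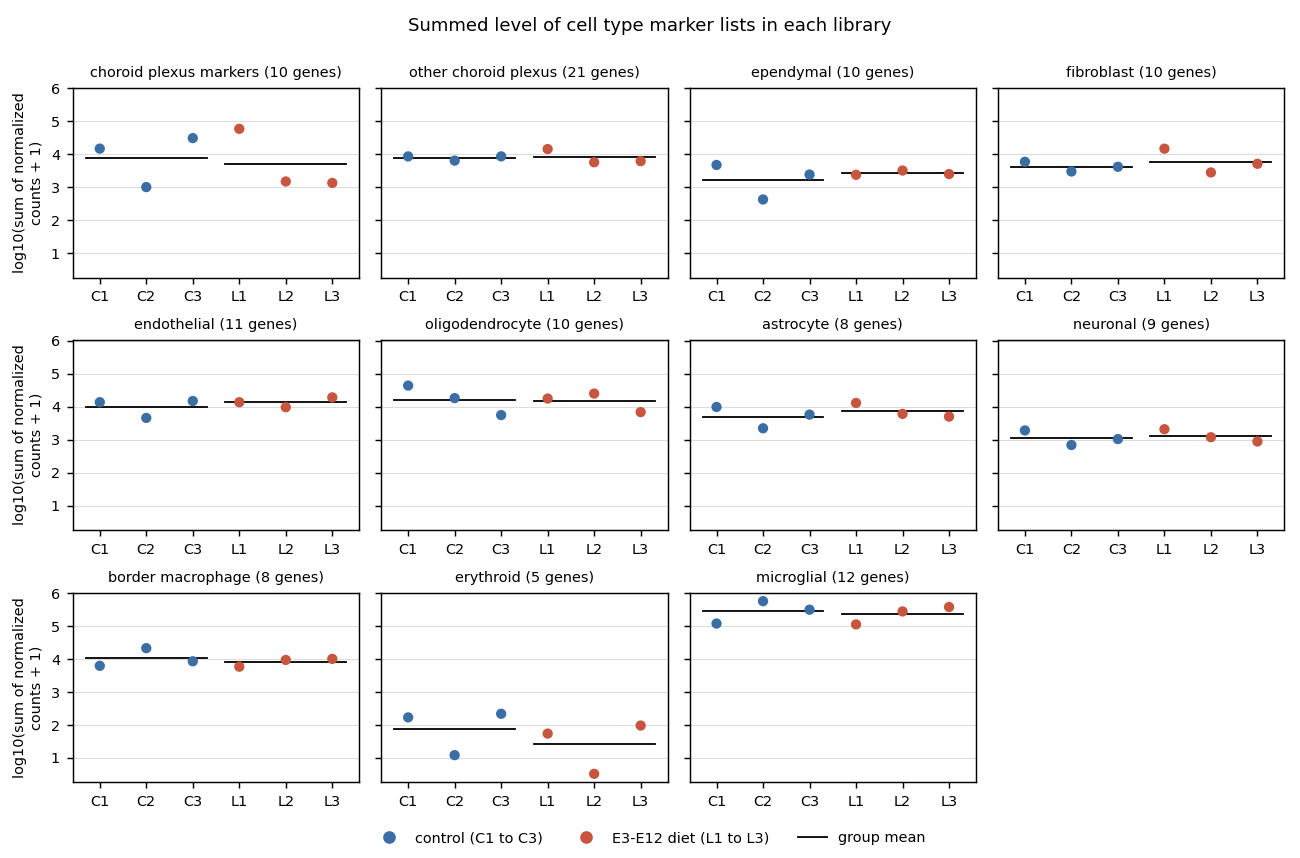
Summed normalized counts of each marker list in each library (log axis), with controls (C1 to C3) in blue and E3–E12 diet mice (L1 to L3) in red. The 10 choroid plexus markers span from 1015 to 59791, more than any other list but the erythroid one, which spans from 2.31 to 219.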

How the data were processed

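RNA-seq was read from 6 libraries, 3 per diet, grouped by the labels. The authors deposited normalized counts per gene (unit: signal, not whole numbers), after FastQC, STAR and featureCounts on GRCm38 and DESeq2 by the submitters' processing notes, which give no versions or roles. The table's name mentions surrogate variables, whose use is not described. Reads were 50 bp by the methods and 75 bp by the labels, and the strand setting is not given in the sources used here. Of 26789 genes, 26507 were matched to a symbol, and 0 columns of samples were left unused.

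Genes averaging 10 normalized counts or more over the libraries were compared as log2(normalized count + 1) with limma 3.58.1 (R 4.3.3, lmFit and eBayes, two-sided), Benjamini-Hochberg adjusted over 18007 genes, threshold 0.1. Whole reads could be recovered only in part (73.0% to 87.1% of values up to 5 reads lay within 0.15 of a whole read), so no count test was run. The value of 1 read was checked only up to 5 reads, so larger numbers of reads are approximate. Single genes also had an exact permutation test (scipy 1.17.1). The fit was tested on simulated data. Lengths, exons and 50-base windows came from GENCODE M21 (GRCm38), and promoters from RefSeq. A span is the highest minus the lowest log2 level. The named genes are all markers, up to 5 genes of highest mean per companion list, any partner that passed the filter and the 5 genes nearest to Ttr. Genes named outside this rule, after their values were seen, are Rbp4, Pf4, Rdh5, Kcne2, Cldn2, Tekt1 and Prdm4. The markers and the lists were chosen with earlier results of these data known. The p-values measure the spread between litters as pooled here. Some genes of the lists are not reported here by name.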

Additional observations from a re-analysis of the deposited data

How the results depend on the processing

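No marker passed the adjusted threshold in any of the alternatives, with adjusted p between 0.869 and 1.0 and the lowest unadjusted p at 0.0254. The sign changed in 13 of 130 alternative values of the markers. Folr1 changed to -0.15 with a pseudocount of 10 and to -0.45 with quantile normalization. With each library left out in turn, Ttr ranged from -5.77 to 0.79, Clic6 from -3.96 to 0.046, Folr1 from -2.11 to 1.31, Prlr from -1.33 to 0.0021, Enpp2 from -1.78 to 1.10, Aqp1 from -3.99 to 0.25, Otx2 from -2.60 to 1.83 and Ecrg4 (1500015O10Rik) from -3.06 to 1.84. Kl (-2.08 to -0.14), Kcnj13 (-4.20 to -1.04) and Sostdc1 (-5.55 to -0.79) stayed negative in all of these. The difference in the mean log2 of the summed markers was -0.65, -2.0 without Enpp2, Aqp1 and Prlr, and between -2.44 and 0.35 with 1 library left out. The median of the marker list ranged from -3.18 to 0.15 in the same way, that of the second choroid plexus list from -0.95 to 1.15 and that of the partners from -0.058 to 0.40, and of the other cell type lists only the astrocyte and erythroid medians kept their sign. Over all genes, 0 passed in each alternative but a minimum mean of 50, which tested 12973 genes and gave 1 (Prdm4, lower in E3–E12 diet mice, adjusted p = 0.0597 by limma). Genes with an unadjusted p under 0.05 numbered 486 with no filter, 207 with a minimum mean of 50, 491 with quantile normalization and 276 to 551 with 1 library left out, the most without C1. Equal library totals moved the median log2 difference of all genes from 0.09 to 0.20.

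With the replicate number as a block, 0 genes passed (smallest adjusted p = 0.980 by limma), 468 had an unadjusted p under 0.05 and the summed difference was -0.65. The deviations of libraries with the same number correlated across genes at 0.260, 0.035 and 0.142, and C2 correlated best with L3 (0.087), so the numbers were not taken as pairs.

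Precision was limited by 3 litters per diet and, for markers at a few reads in C2, L2 and L3, by counting error.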
